A study of Mus musculus with 166 samples.

Results

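Cerebellar small RNA of young Htt knock-in mice was compared between carriers of an expanded CAG repeat and their controls. The tested libraries came from heterozygous (Het) mice of the Q80, Q92, Q111 and Q140 lines at 2 months (32 libraries, 8 a line), pooled, and the controls were Het (Q20) and WT mice of the same age (16 libraries, 8 of each). They were chosen by the genotype and age in the sample labels, and are 48 of the 166 libraries of the series. All were on a C57BL/6 background and of both sexes (15 female and 17 male libraries in Q80 to Q140, 8 and 8 in controls). Each knock-in mouse carried 1 wild-type Htt allele and 1 allele with human HTT exon 1, namely Htt tm1.1Pfs (Q80), tm4Mem (Q92), tm5Mem (Q111), tm1Mfc (Q140) or tm2Mem (Q20), and the nominal CAG lengths were 80, 92, 111, 140 and 20. Later comparisons also used 8 libraries of Het (Q175) mice at 2 months and 46 of Q80 to Q140, Q20 and WT mice at 10 months. The study describes Q175 as a spontaneous expansion within the Q140 line. The WT mice were littermates of the Q20 line alone. By the labels they were housed with that line and the mice of each other line among themselves, while the study's methods describe cages that mixed Het and WT mice. CAG length and line, and by the labels the cage group, therefore cannot be told apart, and the control line with a short repeat is the only one with its own littermates. Htt messenger RNA is not measured in small RNA libraries, so that the genotype labels could not be checked against it.

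MicroRNAs are cut from hairpin transcripts and guide Argonaute proteins to messenger RNAs whose 3′ ends pair with the seed, the stretch near the 5′ end of the mature strand. Hairpins often lie in clusters or in introns of host genes, and several hairpins can give the same or nearly the same mature strand. In the cerebellum microRNAs such as miR-124, miR-9, miR-128 and miR-181 mark neurons, miR-219 and miR-338 mark oligodendrocytes, and miR-204, miR-448 and miR-1298 are high in the choroid plexus that lines the adjoining ventricle.

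The mature strands of 12 of the microRNAs that came closest to a difference are shown first, because they define the seed families read out further on. Mir344d-1, with a lower p than Mir29b-1 and Mir146, is not among the 12. Of the 40 microRNAs named here, 36 had a mature entry of the same symbol in RefSeq (GRCm38.p6), as had 289 of the 383 tested. The counts are per hairpin, so that the strand is the one usually kept and was not measured. Capitals mark the seed, bases 2 to 8. The first 6 had estimates above 0 in Q80 to Q140 and the last 6 below 0.
miR-877-5p: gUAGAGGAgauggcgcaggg
miR-155-5p: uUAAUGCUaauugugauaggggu
miR-541-5p: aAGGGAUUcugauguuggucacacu
miR-495-3p: aAACAAACauggugcacuucuu
miR-29b-3p: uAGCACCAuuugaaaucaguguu
miR-146a-5p: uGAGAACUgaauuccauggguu
miR-181d-5p: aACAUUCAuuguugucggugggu
let-7f-5p: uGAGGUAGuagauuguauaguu
miR-101a-3p: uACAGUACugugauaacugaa
miR-218-5p: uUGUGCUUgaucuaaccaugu
miR-33-5p: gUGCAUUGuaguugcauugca
miR-9-5p: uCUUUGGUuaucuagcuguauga
No 2 of these 12 strands share a seed. Each seed is therefore a family of its own here.

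The 48 libraries held 3293523 to 6096597 counts each (median 4183613.5). Following the study's rule, 8 libraries with a standardised connectivity (Z.k, how closely a library resembles the others of its age) below -5 were left out (2 each of Q80, Q92 and WT, 1 each of Q111 and Q20). This left 27 libraries of Q80 to Q140 and 13 of controls. The lowest Z.k kept was -2.21. The neuronal markers Mir124a-1, Mir9-2 and Mir128-1 were abundant in every library. Mir124a-1 was at a median of 10900 CPM (a TMM-scaled share of a library's counts, as edgeR computes it) in Q80 to Q140 and 11010 CPM in controls. Other hairpins of miR-124 were lower, with Mir124a-3 at 144.6 CPM and Mir124a-2 at 3.85 CPM in Q80 to Q140. The liver marker Mir122 was at 1.01 CPM in Q80 to Q140 and 0.917 CPM in controls.

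The first question was whether any microRNA differed at 2 months, an age early in the life of these mice. None passed the test used. Of 383 microRNAs tested with edgeR's quasi-likelihood test, with sex and lane as covariates, 0 were called (a false discovery rate, FDR, under 0.05), which is 0% of those tested. The 383 are Ensembl microRNA transcripts, some without a symbol. Some had identical values, such as Gm23935, Gm24245 and Gm24270 (each a mean of 232.7 CPM in the fitted libraries), so shares of the 383 count such values repeatedly. The lowest FDR was 0.391. By DESeq2 0 were called as well. At an unadjusted p under 0.05 there were 25 (6.53%), of which 14 were higher and 11 lower in Q80 to Q140. With 197 estimates above and 186 below 0 the median log2 fold change was 0.00, a balance that the TMM scaling itself tends to set. No microRNA had values that did not overlap between the 27 libraries of Q80 to Q140 and the 13 of controls.

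A missed threshold does not show that levels were alike, so the width of the intervals is given. The standard error of a log2 fold change had a median of 0.061. For 277 of the 383 microRNAs (72.3%) the 95% interval lay within a 1.25-fold change in either direction, and for 152 (39.7%) within 1.1-fold. Among the 173 microRNAs with a mean of at least 100 CPM these shares were 96.5% and 71.1%. Changes as large as 2-fold lay outside the interval for 368 microRNAs. Of the 5 largest principal components of the fitted libraries, the first took 17.1% of the variance, and membership of Q80 to Q140 explained 1.28% of it. The fifth component, with 6.00% of the variance, had the largest share explained by Q80 to Q140 against controls (14.4%), and lane explained 27.7% of it. Of the 5, the third had the largest share explained by the 6 lines taken apart (20.1%).

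The 3 lowest p-values belonged to microRNAs with higher estimates. Mir877 is a mirtron, a microRNA made by splicing rather than by the usual nuclear cut, from an intron of Abcf1 (chr17:35960730-35960814, minus strand, GRCm38). It ranged over 30.2 to 44.2 CPM in Q80 to Q140 (median 35.9) and over 29.2 to 39.1 CPM in controls (median 32.9). The groups overlapped, with 25 of 27 libraries of Q80 to Q140 above the control median. The log2 fold change by edgeR was 0.16 ± 0.05 (standard error), a difference of 12.1% (95% interval 5.03% to 19.6%). Its FDR was 0.391 (edgeR).

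Mir155, known from activated macrophages and microglia, lies in an exon of Mir155hg (chr16:84714140-84714204). It was rare, with 10 to 44 reads per library. In Q80 to Q140 it ranged over 3.05 to 8.28 CPM (median 5.36) and in controls over 2.34 to 7.13 CPM (median 4.11). Of the 27 libraries of Q80 to Q140, 21 were above the control median, and 2 of the 13 controls were above the median of Q80 to Q140. The log2 fold change was 0.41 ± 0.12 (FDR = 0.408, edgeR).

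Mir541 belongs to the imprinted Dlk1-Dio3 domain, whose microRNAs are made from the maternal chromosome, and lies in an intron of Mirg (chr12:109742409-109742498). It ranged over 1191 to 1566 CPM in Q80 to Q140 (median 1389.9) and over 1218 to 1477 CPM in controls (median 1326). Its log2 fold change was 0.09 ± 0.03 (FDR = 0.408, edgeR), that is 6.68% (2.33% to 11.2%). This estimate depended on which controls were used. It was 0.16 ± 0.04 against WT alone and 0.05 ± 0.04 against Q20 alone, and Mir541 itself was higher in Q20 than in WT by 0.09 ± 0.03 (FDR = 0.993, edgeR).

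**Figure D1:**
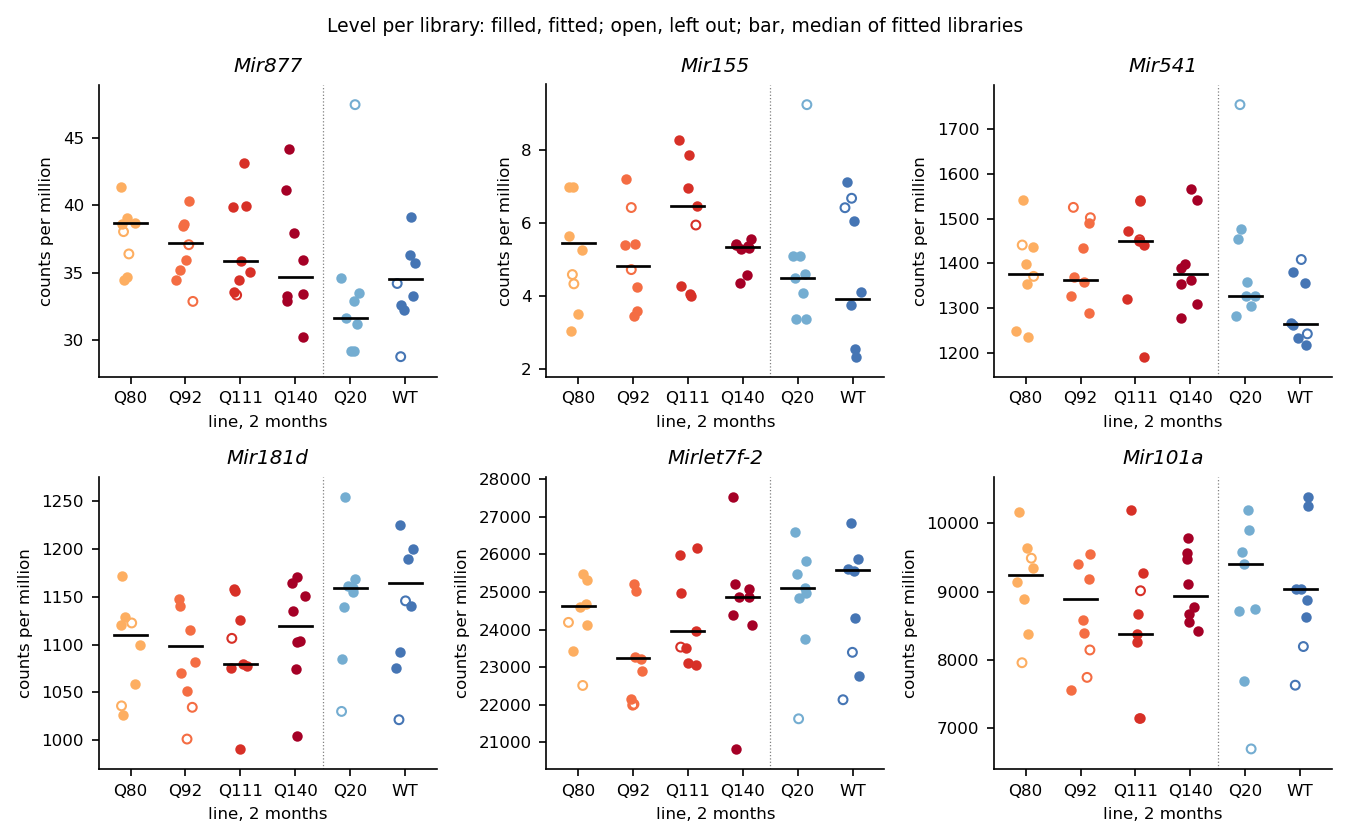
Level of 6 microRNAs in CPM (y axis, which does not start at 0) in each library of the 6 lines at 2 months. Filled points are fitted libraries, open points are the 8 that were left out, bars are medians of fitted libraries, and the dotted line separates Q80 to Q140 from the controls. The libraries of Q80 to Q140 overlap those of the controls in every panel, for example 30.2 to 44.2 against 29.2 to 39.1 CPM for Mir877.

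After these 3 came 7 others with estimates above 0. Mir495, also of Dlk1-Dio3, was at a median of 99.8 CPM in Q80 to Q140 and 93.0 CPM in controls (log2 0.09 ± 0.03). Mir344d-1 was at 12.8 CPM in Q80 to Q140 and 10.8 CPM in controls (0.42 ± 0.16), and shares a run of at least 18 nt with 5 other features, so that reads of these copies may be mixed. Mir29b-1, whose family represses collagens, was at 38.7 CPM in Q80 to Q140 and 30.2 CPM in controls (0.44 ± 0.17). Mir146, the source of miR-146a, which restrains inflammatory signalling through NF-kB, was at 74.04 CPM in Q80 to Q140 and 70.3 CPM in controls (0.21 ± 0.09). The value of Mir146 leaned on library Q111 M1, where it reached 176 CPM. Without that library its log2 fold change was 0.13. Mir335, which lies within an intron of Mest, an imprinted gene, was at 326 CPM in Q80 to Q140 and 309 CPM in controls (0.07 ± 0.03). Mir383 from an intron of Sgcz (0.20 ± 0.08) and Mir873a from an intron of Lingo2 (0.13 ± 0.06) completed the 10. For all 7 the FDR was at least 0.631 (edgeR).

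Of the microRNAs with estimates below 0, Mir181d and Mirlet7f-2 had the lowest p. Mir181d, which lies beside Mir181c in an intron of Nanos3 (chr8:84178716-84178787), ranged over 991 to 1172 CPM in Q80 to Q140 (median 1104) and over 1075 to 1254 CPM in controls (median 1159). Only 3 of the 27 libraries of Q80 to Q140 were above the control median. The log2 fold change was -0.07 ± 0.02, or -4.43% (-7.44% to -1.32%; FDR = 0.631, edgeR). Mirlet7f-2, of the let-7 family that promotes differentiation, lies in an intron of Huwe1 (chrX:151912346-151912428). It ranged over 20824 to 27530 CPM in Q80 to Q140 (median 24610) and over 22774 to 26825 CPM in controls (median 25480), a log2 fold change of -0.06 ± 0.02 (FDR = 0.631, edgeR). Again 3 of the 27 libraries of Q80 to Q140 were above the control median, and the ranges overlapped almost fully.

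Mir101a, a regulator of the histone methyltransferase Ezh2, was at a median of 8892 CPM in Q80 to Q140 and 9041 CPM in controls (log2 -0.09 ± 0.04). Mir218-2, from an intron of the axon guidance gene Slit3, was at 769 CPM in Q80 to Q140 and 786 CPM in controls (-0.06 ± 0.03). Mir33, from an intron of the sterol regulator Srebf2 and known to repress cholesterol export, was at 14.0 CPM in Q80 to Q140 and 16.2 CPM in controls (-0.20 ± 0.09). Mir9-2, a microRNA of neurogenesis that took 4.43% of all counts, was at 43630 CPM in Q80 to Q140 and 45281 CPM in controls (-0.06 ± 0.03). Mir30b (-0.04 ± 0.02), Mir679 of Dlk1-Dio3 (-0.27 ± 0.12), Mir3099 from an intron of the imprinted gene Usp29 (-0.10 ± 0.05) and Gm22370 (-0.30 ± 0.15), which shares a run with 19 other features and had 4 to 20 reads per library, completed the 10. The FDR of these 8 was at least 0.695 (edgeR).

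No other tested microRNA that matched a strand printed above in bases 2 to 8 had an unadjusted p under 0.05. For miR-877-5p, miR-155-5p, miR-541-5p, miR-495-3p, miR-101a-3p and miR-33-5p no other tested microRNA had the same bases 2 to 8, so no family value is given. This match left out Mir101b, which was tested (mean 914 CPM in the fitted libraries). Mir101a also shares a run with 1 paralog. Beside Mirlet7f-2, 9 tested microRNAs had a strand with the seed of let-7f-5p. Of these 8 were below 0 and 1 above, with a median log2 fold change of -0.03. The range was from -0.20 for Mir1961 to 0.00 for Mirlet7d. Mirlet7f-2 shares a run with Mirlet7a-1, so these values are not all independent of each other. Of the 5 other microRNAs with the seed of miR-181d-5p, 4 were below 0 and 1 above, from -0.04 for Mir181c to 0.04 for Mir181b-2 (median -0.01). For miR-29b-3p the family did not follow Mir29b-1. The estimates were -0.09 ± 0.05 for Mir29b-2, which has the same mature strand, -0.01 ± 0.02 for Mir29a and -0.01 ± 0.03 for Mir29c. Mir218-1, which shares a run with Mir218-2, had an estimate of 0.29 ± 0.22 while that of Mir218-2 was below 0. Without library Q111 F2, where it reached 188 CPM, the estimate of Mir218-1 was 0.10. Counts of such pairs of hairpins are uncertain, since reads of a shared strand may be divided between them. Mir146b, which has the seed of miR-146a-5p, was at -0.00 ± 0.04. Mir9-3, which has the seed of miR-9-5p, was at -0.08 ± 0.05. Mir9-2 shares a run with 1 paralog, so its count is uncertain as well.

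**Figure D2:**
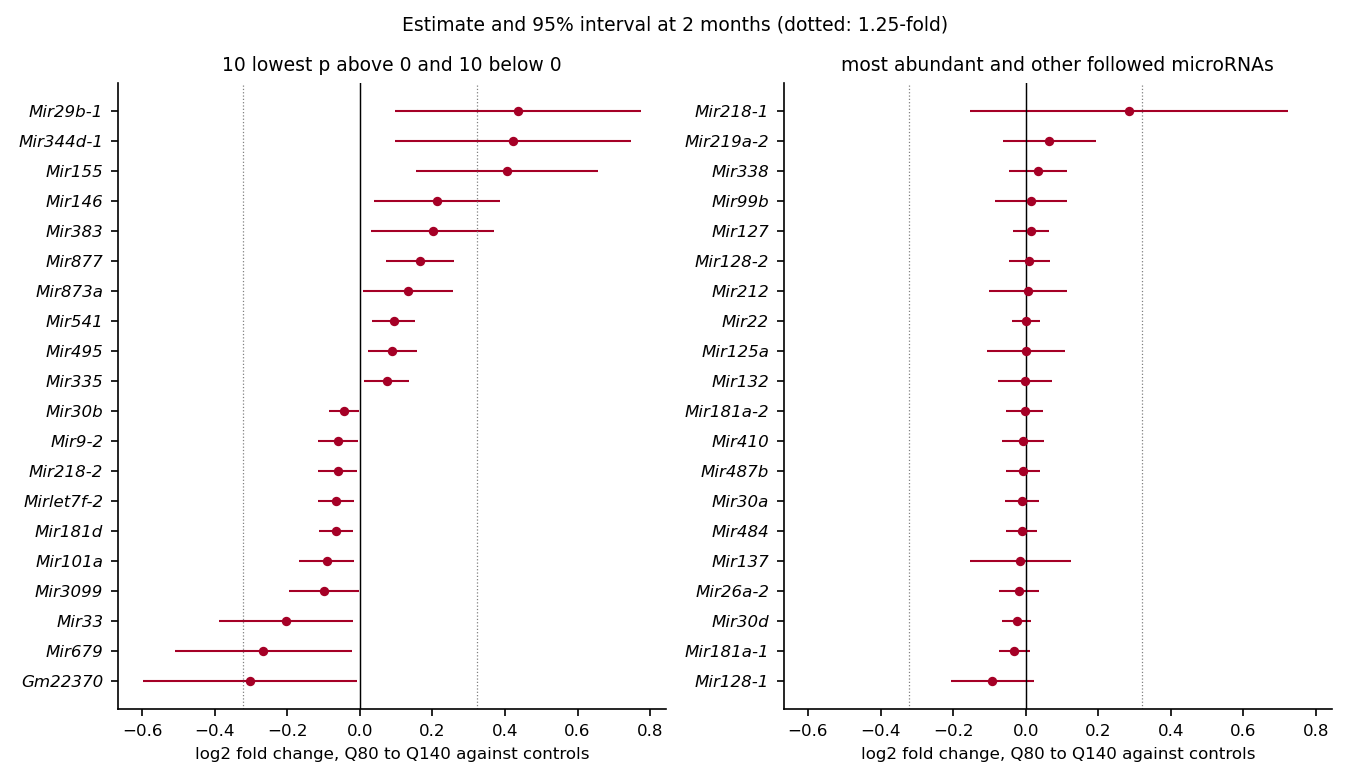
Log2 fold change of Q80 to Q140 against controls at 2 months (x axis) with 95% intervals, for the 10 microRNAs with the lowest p in each direction (left) and the 20 others chosen for their abundance or for earlier results (right). Dotted lines mark a 1.25-fold change. On the left the intervals exclude 0 because the microRNAs were picked by p, and on the right all intervals hold 0, with Mir218-1 the widest.

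Of the 10 most abundant microRNAs, Mirlet7f-2 and Mir9-2 were given above, with intervals below 0 and no call, and the intervals of the other 8 held 0. Mir26a-2, which took 14.1% of all counts, was at a median of 140249 CPM in Q80 to Q140 and 141590 CPM in controls, a difference of -1.27% (95% interval -4.94% to 2.54%). Mir181a-2 took 13.7% of counts and differed by -0.164% (-3.63% to 3.43%). Each of these shares a run with a paralog. Mir125a (6.90% of counts), Mir127, Mir30a, Mir30d, Mir99b and Mir22 had log2 fold changes between -0.03 and 0.01, and Mir127, an imprinted microRNA antisense to Rtl1, differed by 1.03% (-2.33% to 4.51%).

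A further set was followed because these microRNAs stood out elsewhere in the series or in the study. Mir132 and Mir212 are a neighbouring pair induced by CREB and neuronal activity. Mir132 was at a median of 1104 CPM in Q80 to Q140 and 1110 CPM in controls, and Mir212 at 269 CPM in Q80 to Q140 and 249 CPM in controls. Mir132 differed by -0.121% (-5.10% to 5.11%) and Mir212 by 0.459% (-6.71% to 8.18%). Mir137, a neuronal microRNA, was at 18.6 CPM in Q80 to Q140 and 18.4 CPM in controls, a difference of -0.985% (-10.1% to 9.02%). Mir484 differed by -0.742% (-3.68% to 2.28%), and Mir487b and Mir410 of Dlk1-Dio3 by -0.524% (-3.70% to 2.76%) and -0.485% (-4.46% to 3.66%). The oligodendrocyte microRNAs Mir219a-2 and Mir338 were at log2 0.07 ± 0.06 and 0.03 ± 0.04, Mir128-1 and Mir128-2, which share a run, at -0.09 ± 0.06 and 0.01 ± 0.03, and Mir181a-1 at -0.03 ± 0.02. The microRNAs of this set outside the 10 lowest p-values in each direction all had intervals that included 0.

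Lists of microRNAs by family, locus or cell type were read against all microRNAs tested, of which 197 were above and 186 below 0. No member of any list was called. Of 41 tested microRNAs on the Dlk1-Dio3 list, 22 were above and 19 below 0 (median log2 0.01). The intervals of 38 lay within 1.25-fold. This list is wider than the imprinted domain, since Mir342 (0.05 ± 0.03) and Mir345 (-0.00 ± 0.04) on it lie outside. Of 24 neuronal microRNAs 11 were above and 13 below 0 (median -0.01). The let-7 list, which overlaps the seed family above, had 1 of 10 members above 0 and 9 below (median -0.03), the miR-181 list 1 of 6 above (median -0.02), the miR-29 list 1 of 4 (median -0.01) and the miR-30 list 2 of 6 (median -0.01). Of 9 microRNAs of Mir17-92 and its paralogs 5 were above 0 (median 0.02), and both members of the Mir132 and Mir212 list were within 1.25-fold.

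Among the cell type lists, 3 of 4 oligodendrocyte microRNAs were above 0 (median 0.02), 4 of 6 microglial and immune ones (0.02), 1 of 2 erythroid (-0.00), 2 of 3 vascular (0.00), 4 of 6 muscle (0.02) and 0 of 3 liver (-0.03). The 3 of the liver list were Mir192, Mir194-1 and Mir194-2. That list summed to a median of 4011 CPM in Q80 to Q140, where Mir122 was at 1.01 CPM, so it is no readout of liver cells. Besides Mir155, the immune list held Mir223, the marker of myeloid cells, at -0.02 ± 0.10 and Mir142b at 0.05 ± 0.05. It also held Mir150 at 0.02 ± 0.02, Mir21a at 0.01 ± 0.02 and Mir146b at -0.00 ± 0.04. Apart from Mir155, the widest interval on this list was that of Mir223, -0.22 to 0.17. Mir146, the source of miR-146a, was not among the 6 and had an estimate of 0.21 ± 0.09. Only 6 of 8 symbols on the immune list and 2 of 4 on the erythroid list matched a feature. No member of the miR-200 list passed the filter on low counts in the pooled comparison. Mir200a was at 0 in 7 of 27 libraries of Q80 to Q140 and 0 of 13 controls, Mir200b in 3 and 1, and Mir429 in 2 and 0. Their medians were 0.247, 0.495 and 0.493 CPM in Q80 to Q140 and 0.687, 0.934 and 1.66 CPM in controls. At such levels a count of 0 says little.

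Lists of tissues that adjoin the cerebellum or are scarce in it had larger estimates and larger errors. Of 6 choroid plexus microRNAs 1 was above 0 and 5 below, with a median of -0.24. Mir1298 was at -0.76 ± 0.90 and Mir448 at -0.72 ± 0.84. Mir1298 ranged over 13.9 to 722 CPM in Q80 to Q140 (median 22.7) and over 8.93 to 567 CPM in controls (median 25.5), so that a few libraries of each group were far above the rest. All 3 microRNAs of the sensory Mir183 cluster (median 0.21) and all 3 tested Hox-linked microRNAs of the hindbrain (median 0.20) were above 0, and none had an unadjusted p under 0.05. In bulk tissue fewer cells of a type and less RNA per cell cannot be told apart.

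The choroid plexus microRNAs were also high in most of the libraries that were left out. Their summed level was 14050 to 39470 CPM in these 8 libraries (median 30680), against 16140 to 24270 CPM in the fitted libraries of Q80 to Q140 (median 17410) and 15740 to 23050 CPM in those of controls (median 17710). Mir204 made up most of this sum. Mir1298 had a mean of 1329 CPM in the left-out libraries and 132 CPM in the fitted ones, and Mir448 234 CPM in the left-out and 24.1 CPM in the fitted libraries. Other lists moved in the same libraries. The Mir183 cluster had a median sum of 2491 CPM in the left-out libraries, against 968.8 CPM in the fitted ones of Q80 to Q140 and 891.5 CPM in those of controls. The Hox-linked list was at 1842 CPM in the left-out libraries, against 1170 CPM in Q80 to Q140 and 1006 CPM in controls, and the muscle list at 341 CPM, against 231.7 CPM in Q80 to Q140 and 222 CPM in controls. The neuronal list was lower, at 74450 CPM in the left-out libraries, against 86880 CPM in Q80 to Q140 and 86800 CPM in controls. The leading microRNAs for genotype differed there too, by the log2 ratio of mean levels, left-out to fitted. Those with estimates below 0 were lower, from -0.05 (Mir679) to -0.19 (Mir9-2). Of those above 0, Mir383 (0.62), Mir873a (0.49), Mir29b-1 (0.27), Mir155 (0.23) and Mir146 (0.19) were higher. So were Mir335 (0.17), Mir344d-1 (0.17) and Mir541 (0.09), while Mir495 was lower (-0.06). The left-out libraries came from Q80 (2), Q92 (2), Q111 (1), Q20 (1) and WT (2). With all 48 libraries kept 0 of 388 microRNAs were called, with 9 at an unadjusted p under 0.05. Then Mir877 was at log2 0.12 ± 0.05, Mir155 at 0.19 ± 0.13 and Mir541 at 0.06 ± 0.03, and 10 of the 20 leading estimates were smaller than in the fitted libraries by a factor of over 1.5. These were Mir155, Mir335 (0.04), Mir873a (0.09), Mirlet7f-2 (-0.04), Mir101a (-0.04), Mir218-2 (-0.03), Mir9-2 (-0.04), Mir30b (-0.02), Mir679 (-0.12) and Gm22370 (-0.19). The part of these tissues in the genotype estimates was not tested.

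**Figure D3:**
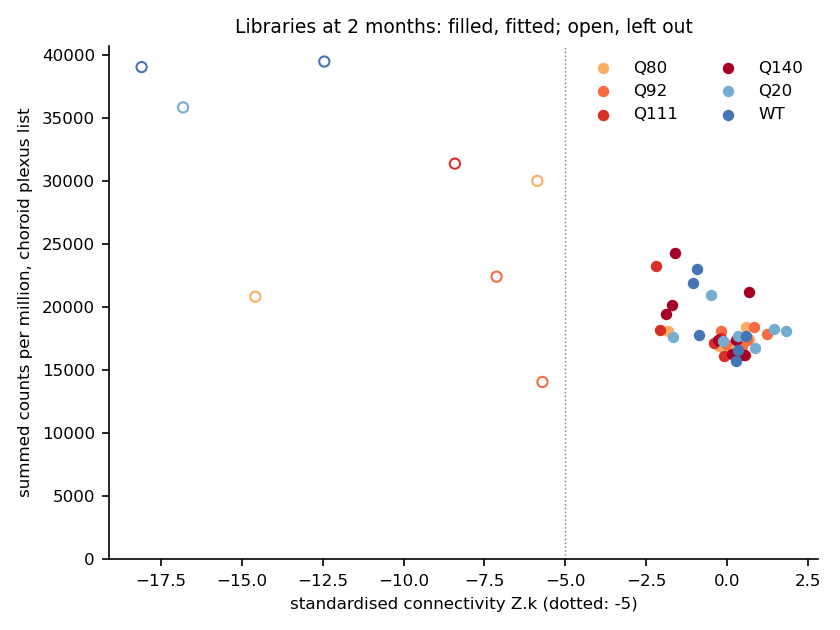
Summed level of the choroid plexus list in CPM (y axis) against the standardised connectivity Z.k (x axis) of each library of Q80 to Q140, Q20 and WT at 2 months. Open points left of the dotted line at -5 were left out, with sums of 14050 to 39470 CPM, and filled points are the fitted libraries, with sums of 15740 to 24270 CPM.

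Sequencing lane was unevenly spread over the groups and gave 28 calls, where genotype gave 0. The library names carry L1 or L2, taken here as the lane. Of the fitted libraries of Q80 to Q140, 16 were in L1 and 11 in L2, and of the controls 5 were in L1 and 8 in L2. Q140 had 7 of its 8 libraries in L1. In the same fit 28 of 383 microRNAs (7.31%) were called between lanes, 12 higher and 16 lower in L2, and all 28 were among the 33 called by DESeq2. The lowest FDR belonged to ENSMUST00000175457 (log2 -0.39 ± 0.06) and Mir369 (-0.15 ± 0.02). Higher in L2 were Mir16-1, Mir127, Mir130a, Mir151, Mir154, Mir155, Mir300, Mir541, Mirlet7c-1, Mirlet7i, Gm24083 and Gm25732, by log2 0.05 (Mirlet7i) to 0.43 (Mir155). Besides the 2 just named, Mir9-2, Mir101a, Mir101b, Mir128-1, Mir221, Mir384, Mir434, Mir487b, Mir532, Mir582, Mir3071, Gm23388, Gm24111 and Gm25641 were lower in L2, down to -0.47 for Gm23388. Of the 20 leading microRNAs for genotype (the 10 lowest p in each direction), 4 were called for lane: Mir155 (0.43 ± 0.11 in L2, FDR = 0.0109, edgeR) and Mir541 (0.11 ± 0.03) higher in L2, and Mir101a (-0.14 ± 0.04) and Mir9-2 (-0.10 ± 0.03) lower in L2. Mir877 was not called for lane (0.03, FDR = 0.750, edgeR).

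Within lanes the genotype difference was measured again in fewer libraries, and 0 were called in either. Mir877 was at log2 0.13 ± 0.07 in L1 and 0.19 ± 0.06 in L2, Mir155 at 0.62 ± 0.19 in L1 and 0.26 ± 0.17 in L2, and Mir541 at 0.07 ± 0.05 in L1 and 0.11 ± 0.04 in L2. Without the lane term Mir155 was at 0.31 ± 0.14 and Mir541 at 0.07 ± 0.03. The same libraries chose these microRNAs and gave the values within lanes, so that the direction in each lane is not separate evidence.

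**Figure D4:**
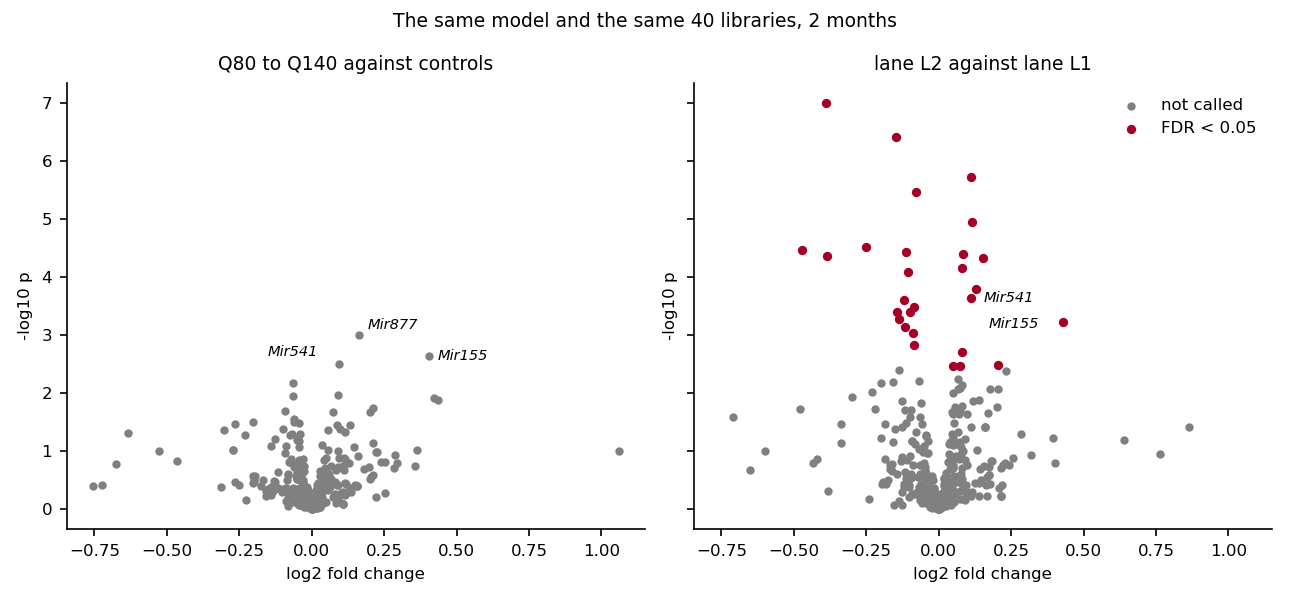
Log2 fold change (x axis) and -log10 of the unadjusted p (y axis) of 383 microRNAs for Q80 to Q140 against controls (left) and for lane L2 against L1 (right), from the same fit of 40 libraries. Points in red passed an FDR of 0.05. There are 0 on the left and 28 on the right, Mir155 and Mir541 among them.

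Pooling treats the 4 lines as alike, so each was also set against the same 13 controls, among 413 tested microRNAs. With edgeR 0 were called (0%) in each of Q80, Q92, Q111 and Q140, with 16, 26, 26 and 20 at an unadjusted p under 0.05, and DESeq2 called 0, 1, 0 and 0. The 1 call was ENSMUST00000175151 in Q92, an unnamed feature at log2 -1.90 ± 0.48 by edgeR (FDR = 0.160) with FDR = 0.009 by DESeq2. In Q80 the 3 lowest p-values belonged to Gm23638 (2.11 ± 0.72), Mir1191 (0.55 ± 0.19) and Mir877 (0.20 ± 0.07). In Q92 ENSMUST00000175151 was followed by Mir429 (-2.36 ± 0.65), of the miR-200 family at a median of 0.493 CPM over Q80 to Q140, and by Mir495 (0.15 ± 0.05). In Q111 they were Gm25732 (-0.24 ± 0.09), which was also called for lane, Mir181d (-0.09 ± 0.03) and Mir101a (-0.14 ± 0.05), and in Q140 Mir541 (0.14 ± 0.04), Gm25927 (-0.08 ± 0.03) and Mir155 (0.51 ± 0.18).

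The values of the 4 lines are given for the microRNAs named first. Mir877 was at a median of 38.6 CPM in Q80, 37.2 in Q92, 35.9 in Q111 and 34.7 in Q140, against 31.6 in Q20 and 34.5 in WT. Its log2 fold changes were 0.20, 0.17, 0.16 and 0.14 in the order of CAG length, each with a standard error of 0.07. Q140 and WT thus lay side by side, and Q20 was the lowest. Mir155 was at 5.45, 4.82, 6.46 and 5.33 CPM in the 4 lines, against 4.48 in Q20 and 3.93 in WT. Of the 20 leading microRNAs (10 in each direction), 19 had the same sign in all 4 lines, the exception being Gm22370 in Q80 (0.01). The lines share their controls and the 20 were picked from the pooled value, so that this is a description and no separate evidence.

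**Figure D5:**
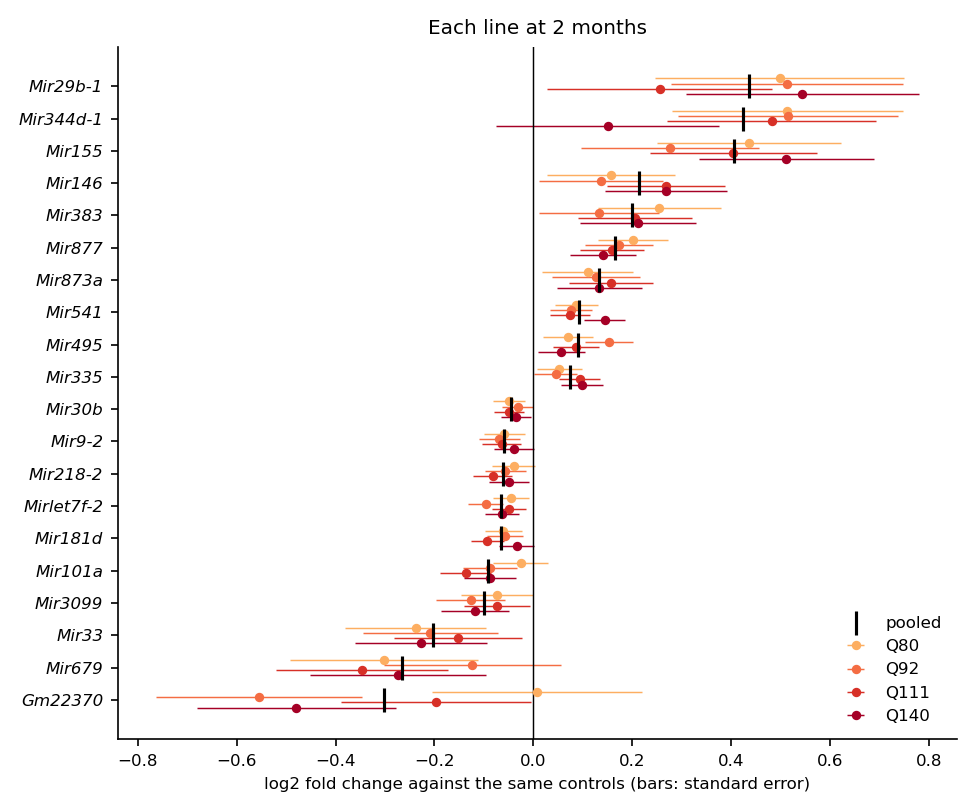
Log2 fold change of each line against the same 13 controls (x axis, bars are standard errors) for the 10 microRNAs with the lowest p in each direction of the pooled comparison, with the pooled value as a black bar. The points of the 4 lines lie on one side of 0, except Gm22370 in Q80 at 0.01, and the bars of the lines overlap for most.

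Direct tests between lines gave no calls either. A test of any difference among Q80, Q92, Q111 and Q140 called 0 of 413 (0%), with 25 at an unadjusted p under 0.05 and 0 by DESeq2. The lowest p-values belonged to Gm23766 and to the unnamed ENSMUST00000175596 and ENSMUST00000175243, with FDR of at least 0.275 (edgeR). A slope on CAG length within the 4 lines, without controls, called 0 of 395 (0%), with 5 at an unadjusted p under 0.05 and 0 by DESeq2. Per 100 CAG the slope was -0.07 for Mir877, 0.20 for Mir155 and 0.12 for Mir541. Its lowest p-values were those of ENSMUST00000175063, a feature with no symbol, Mir451a, a microRNA of red blood cells (0.29 ± 0.13), and Mir3475 (-0.85 ± 0.41), with an FDR of 0.998 (edgeR). These slopes had a median standard error of 0.162 on the log2 scale per 100 CAG, so that small slopes were not detectable at this number of mice.

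The pooled difference was also compared between sexes and between the kinds of control. For the difference in males less that in females, 0 of 383 were called (0%), with 29 at an unadjusted p under 0.05 and 0 by DESeq2, led by Mir1961 (1.38 ± 0.38), Gm26117 (0.86 ± 0.26) and Mir135b (-0.49 ± 0.16). Mir155 was at log2 0.17 ± 0.15 in males and 0.63 ± 0.19 in females, and the difference of -0.49 ± 0.23 had an FDR of 0.589 (edgeR). Sex itself, a test added after the data had been seen, gave 6 calls of 383 (1.57%) over the libraries of both groups, and DESeq2 called the same 6. Mir434 (0.07 ± 0.01), Mir488 (0.15 ± 0.03) and Mir181c (0.08 ± 0.02) were higher in males, and Mir129-1 (-0.09 ± 0.02), Mir132 (-0.15 ± 0.03) and Mir374b (-0.19 ± 0.04) were lower in males.

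Between Q20 and WT 0 of 367 were called (0%), with 6 at an unadjusted p under 0.05 and 0 by DESeq2. The lowest p-values were those of ENSMUST00000176380 (1.52 ± 0.43), Mir206 (0.18 ± 0.06) and Mir541 (0.09 ± 0.03). For Mir877 Q20 was below WT by a log2 difference of -0.14 ± 0.07, so that its estimate was 0.22 ± 0.06 against Q20 alone and 0.11 ± 0.06 against WT alone.

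The pooled difference was set against that at 10 months, and no change with age passed the test. Of the 46 libraries at 10 months 1 was left out by Z.k. They were in other lanes (L4, L5 or L6) than those at 2 months, and lane was fitted within each age. For the 10-month difference less the 2-month one 0 of 410 microRNAs were called (0%), with 37 at an unadjusted p under 0.05 and 0 by DESeq2. The lowest p-values belonged to Mir344d-1 (-0.67 ± 0.20), Mir181c (0.12 ± 0.04) and Mir488 (0.15 ± 0.05). At 10 months itself, a test also added later, 0 of 410 were called (0%), with 44 at an unadjusted p under 0.05 and 0 by DESeq2, and the lowest FDR was 0.084 (edgeR) for Mir488, a microRNA of neurons (log2 0.14 ± 0.04), followed by Mir137 (0.23 ± 0.07) and Mir181c (0.08 ± 0.02). Of the 20 leading microRNAs at 2 months, 12 had the opposite sign at 10 months, and 19 were nearer 0, the exception being Mir9-2 (0.07 ± 0.03 at 10 months and -0.06 ± 0.03 at 2 months). Mir877 was at 0.04 ± 0.05 at 10 months and 0.16 ± 0.05 at 2 months, Mir155 at 0.08 ± 0.09 at 10 months and 0.41 ± 0.12 at 2 months, and Mir541 at 0.03 ± 0.04 at 10 months and 0.09 ± 0.03 at 2 months. They were picked as the extremes at 2 months, and the difference between ages for these 3 had no call.

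Q175, the line with the longest repeat (8 libraries at 2 months), was set against Q80 to Q140 directly, without use of the controls. Q175 M2 and M4 were in L2 and its other libraries in L1. Of 394 microRNAs 0 were called (0%), with 20 at an unadjusted p under 0.05 and 0 by DESeq2. The lowest p-values were those of Mir181a-1 (0.08 ± 0.02, FDR = 0.294, edgeR), Mir137 (0.24 ± 0.08, FDR = 0.445, edgeR) and Mir539 of Dlk1-Dio3 (0.35 ± 0.11). Of the 20 leading microRNAs of the pooled comparison, 2 had an unadjusted p under 0.05 for Q175, Mir335 (0.08 ± 0.04) and Mir218-2 (0.07 ± 0.04), with FDR of at least 0.870 (edgeR). The estimates were 0.07 ± 0.06 for Mir877, -0.00 ± 0.14 for Mir155 and 0.04 ± 0.04 for Mir541.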

How the data were processed

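Total RNA of the cerebellum was column-purified and sequenced as strand-specific single 36-nt reads. By the study's methods, adapter-clipped reads were aligned with STAR (mm10) and counted by HTSeq, and CASAVA 1.8.2 appears in the notes of the submitters. The deposited table holds expected counts (estimated counts, some fractional) per Ensembl microRNA transcript, 1626 in all, which the authors did not normalise. The step that divided shared reads is not given in the sources used here. A deposited RPKM table was not used. Counts were rounded. GENCODE M21 (GRCm38) gave symbols and positions for 1228 features, and the other 398 held 0.600% of counts. Runs of at least 18 nt shared between hairpins were listed.

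A Z.k below -5 among libraries of the same age removed 8 libraries at 2 months and 1 at 10 months. Tests used edgeR 4.0.16 (filterByExpr, TMM, quasi-likelihood) in R 4.3.3 with sex and lane as covariates and an FDR (Benjamini-Hochberg) under 0.05 as a call. DESeq2 1.42.0, other scalings, filters, covariates and sets of libraries were alternatives. CPM use TMM-adjusted library sizes. The script was tested on simulated data. The labels number the mice of a group separately, and among 168 pairs of libraries of a line none looked like a repeat (lowest chi-square per degree of freedom 14.5).

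The text names all calls, the 10 lowest p-values in each direction of the pooled comparison, the 10 most abundant microRNAs, a set taken from other results of the series, and the 3 lowest p-values of each other comparison without calls. The members and lists were chosen with earlier results of these data known.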

Additional observations from a re-analysis of the deposited data

Results flagged for a closer look

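For the 10 microRNAs with the lowest p in each direction, the fitted libraries of each line were searched for a highest or lowest library set apart from its line by a large share of the range (Dixon's test). Of 120 groups, 8 had such a library (6.67%), and chance gives about 1 in 20.

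In Q92 library F4 held 18.244 CPM of Mir344d-1, and the next highest of the line 14.054 CPM. In Q111 library M1 held 176.06 CPM of Mir146, and the next highest 86.5 CPM. Q111 F2 was the highest of its line for Mir335 (383.1 CPM, next 338.75) and for Mir873a (71.722 CPM, next 54.6). In Q140 library M4 was the highest for Mir33 (20.902 CPM, next 14.3), library F4 the lowest for Mir383 (40.848 CPM, next 59.3) and library F2 the lowest for Mir30b (4176 CPM, next 4535.7). In WT library M4 was the lowest for Mir30b (4296.6 CPM, next 4703).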

How the results depend on the processing

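The pooled count stayed at 0 under all 21 alternatives, with a lowest FDR of 0.145 (without Q92) to 0.75 (L1 alone), and in all 40 fits that left out a library (0 to 0). The 20 leading microRNAs kept their sign wherever an alternative gave a value. They were picked from the pooled value and the alternatives reuse its libraries, so that the kept signs are no separate evidence. The size was less stable, and 17 of the 20 moved by over 1.5 times under at least 1 alternative (not Mir877, Mir344d-1 and Mir383). Mir155 ranged over 0.17 (males) to 0.63 (females), Mir541 over 0.05 (Q20 as controls) to 0.16 (WT as controls), Mir335 over 0.03 (males) to 0.11 (females) and Mir495 over 0.04 (L1) to 0.13 (L2). With WT alone as controls Mir218-2 was at -0.03 and Mir3099 at -0.05.

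With replicate numbers as a block 0 were called (lowest FDR 0.595). Same-numbered libraries of different lines had a mean correlation of -0.0209 over 77 pairs (-0.439 to 0.564), other pairs -0.0331, and 13 of 40 libraries correlated best with their own number, so the numbers were not taken as pairs.

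With all libraries kept Q80 had 6 calls and the differences between lines 8. Q80 F1, a left-out library, held 259.9 CPM of Gm25190, against 10.4 to 37.7 CPM in the other 47. It was also the highest for Gm26318 (30.8 CPM, others at most 10.75) and ENSMUST00000175596 (5294 CPM, others at most 1822). Gm23935, Gm24245 and Gm24270 had identical values (1323 CPM there, others at most 342.5) and were called in both comparisons. For Gm23766, called between lines, Q80 F1 (303.2 CPM) was not the highest (others up to 334.7). DESeq2 called 1 microRNA in Q92 (ENSMUST00000175151), and the CAG slope without a filter on low counts called 2 (Mir466b-7 and Mir466b-5), which reached at most 2.00 CPM. Lane gave 20 to 33 calls. The other counts rerun stayed at 0. For male against female and for the pooled comparison at 10 months the alternative was DESeq2 only (6 calls and 0).

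Low counts limit Mir155, Mir679 and Gm22370, shared runs limit 9 of the 20, and line and repeat length cannot be told apart.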
